A study of Rattus norvegicus with 12 samples.

Results

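The 45 genes described here encode the Wnt ligands, their receptors and secreted antagonists, and the core of the intracellular relay, as measured in rat atrial appendages by Affymetrix expression arrays. They were chosen by a rule on gene symbols, set with earlier results of these data known. The rule took Wnt ligands, Porcn, frizzled receptors, Lrp5 and Lrp6, Sfrp, Frzb, Dkk and Wif1 antagonists, R-spondins, dishevelled, axin, naked cuticle and Tcf/Lef genes, and Ctnnb1. They make up 45 of the 14217 genes that the arrays name, each read through 1 probe set, its brightest by mean over all 12 arrays. The set comprised 13 ligands, 1 ligand acyltransferase, 7 frizzled receptors, 2 co-receptors, 8 secreted antagonists, 2 R-spondins, 5 relay genes, 3 feedback genes and 4 nuclear factors.

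Tissue came from male Sprague-Dawley rats of 225 to 275 g that had undergone an aorto-caval shunt operation, which opens a fistula between the aorta and the vena cava and loads the heart with volume, or a sham operation, 28 days earlier. There were 4 groups of 3 arrays: each atrium, right and left, after each operation, sham and shunt. Each array carried RNA from a pool of 2 appendages, so a value is an average of the pool and the spread between arrays is a spread between pools. The animals' age was not given in the sources used here, and the tissue entry of the labels names ventricles beside atria. The 7 measured atrial cardiomyocyte markers, among them Nppa and Myl7, were bright on all 12 arrays, and their summed level lay between 15.99 and 16.08 on the log2 scale in every group. The number of arrays, not a read depth, limits the precision, and the array medians lay between 5.44 and 5.47.

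Wnt ligands are lipid-modified secreted proteins that bind frizzled receptors together with the co-receptors Lrp5 or Lrp6. In the best known branch of the pathway, receptor binding recruits dishevelled, stops the axin complex from marking beta-catenin for destruction, and lets beta-catenin act with Tcf/Lef factors on target genes such as Axin2. Secreted antagonists of the Sfrp family and Wif1 bind the ligands, while typical dickkopf proteins block the co-receptors. In the heart the pathway is best known for its part in the embryo, where it patterns the chambers and valves, and it is largely quiet in healthy adult myocardium and active again in injury and fibrosis.

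The recognition sequence of the Tcf/Lef factors is the piece of DNA through which the relay reaches its targets, so the promoter windows of the members were searched for it. RefSeq windows on rat build GRCr8, matched 34 of the 45 members, each from 250 bases before to 50 bases after the transcript start that the table uses. That start is the outermost start of the gene for 18 members and lies up to 1000 bases inside it for 10, among them Frzb (72 bases). For the other 6 (Axin2, Ctnnb1, Fzd8, Nkd2, Wnt11 and Wnt5a) it lies 1365 to 16561 bases inside, so those windows are within the annotated gene. The search took CTTTG followed by AA, AT, TA or TT, on both strands, and 4 of the 34 windows (11.8%) held such a match, against 17.1% of 33469 windows of all genes. The windows printed here are those 4 and that of Frzb, the member that moved farthest with the shunt. They lie at chr10:94398535-94398834, plus strand, for Axin2, chr19:34722797-34723096, minus strand, for Nkd1, chr1:250960463-250960762, minus strand, for Sfrp5, chr10:36954230-36954529, minus strand, for Tcf7 and chr3:85772047-85772346, minus strand, for Frzb. Each is written 5′ to 3′ along the gene's own strand, and capitals mark a match.
Axin2: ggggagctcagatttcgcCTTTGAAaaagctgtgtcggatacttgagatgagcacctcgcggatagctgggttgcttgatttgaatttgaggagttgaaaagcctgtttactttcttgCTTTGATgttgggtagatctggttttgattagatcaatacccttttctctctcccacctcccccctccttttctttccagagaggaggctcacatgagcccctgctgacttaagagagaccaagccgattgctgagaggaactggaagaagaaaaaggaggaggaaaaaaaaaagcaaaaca
Nkd1: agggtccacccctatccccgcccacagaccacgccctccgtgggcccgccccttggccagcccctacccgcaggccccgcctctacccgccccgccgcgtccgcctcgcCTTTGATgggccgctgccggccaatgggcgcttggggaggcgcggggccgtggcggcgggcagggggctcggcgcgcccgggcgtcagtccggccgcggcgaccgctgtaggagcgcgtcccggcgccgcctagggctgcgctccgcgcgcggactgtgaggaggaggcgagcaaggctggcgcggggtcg
Sfrp5: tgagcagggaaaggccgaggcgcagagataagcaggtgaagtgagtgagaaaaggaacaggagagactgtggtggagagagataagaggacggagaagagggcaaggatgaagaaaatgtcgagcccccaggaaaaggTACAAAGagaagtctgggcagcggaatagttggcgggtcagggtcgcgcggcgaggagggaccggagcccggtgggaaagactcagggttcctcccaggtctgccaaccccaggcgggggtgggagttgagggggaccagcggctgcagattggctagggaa
Tcf7: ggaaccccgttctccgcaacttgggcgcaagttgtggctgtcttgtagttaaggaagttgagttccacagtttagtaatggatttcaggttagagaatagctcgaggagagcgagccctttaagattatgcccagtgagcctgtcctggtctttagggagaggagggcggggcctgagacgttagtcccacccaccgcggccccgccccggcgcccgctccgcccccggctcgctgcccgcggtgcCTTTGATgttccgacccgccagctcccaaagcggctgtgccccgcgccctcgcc
Frzb: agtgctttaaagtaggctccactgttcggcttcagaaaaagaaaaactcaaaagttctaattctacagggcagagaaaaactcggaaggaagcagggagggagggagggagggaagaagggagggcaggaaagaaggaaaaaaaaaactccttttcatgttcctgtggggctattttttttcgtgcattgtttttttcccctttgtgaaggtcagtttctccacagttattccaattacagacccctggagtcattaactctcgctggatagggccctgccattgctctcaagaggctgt

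Axin2 held 2 matches, which began 232 and 132 bases before the start its window uses, and that start lies 5406 bases inside the annotated gene. The match of Nkd1 began 141 bases before its outermost start, that of Tcf7 4 bases before it, and that of Sfrp5, on the other strand, 112 bases before it. The window of Frzb held none of the 4 forms searched. The members' windows were rich in G and C, with a median of 66.2% against 51.7% over all windows, and held a median of 28 CpG pairs against 7. A match of these letters is a description of the sequence and was not linked to any value here.

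The first comparison asks how 28 days of shunt changed each atrium relative to sham. Values are log2 RMA values, in which a difference of 1 is a 2-fold change. A gene is said to have changed where limma's moderated test, fitted to all 12 arrays and all 31042 probe sets, gave a Benjamini-Hochberg adjusted p below 0.05. In the right atrium 3 of the 45 members changed (6.67%), against 3.97% of all 14217 genes: Fzd1 and Fzd2 rose (background 2.83%) and Sfrp5 fell (background 1.14%). In the left atrium no member passed the test, against 0.935% of all genes (0.373% higher and 0.563% lower), while 10 members (22.2%) had an unadjusted p under 0.05 by limma, against 14.7% of all genes. Averaged over both atria 5 members changed (11.1%, against 5.25% of all genes). Of these, 4 rose (Frzb, Fzd2, Fzd1 and Dkk3, against 3.4% of all genes) and 1 fell (Sfrp5, against 1.86%). The average takes the left and right pools as independent, which nothing states. Were they from the same animals, its standard errors could be too small and its p-values too low. The left atrium's shunt effect differed from the right atrium's for no member by the same test (background 0.0281% of genes), and 7 members (15.6%) had an unadjusted p under 0.05 for this difference, against 14.5% of all genes.

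The members as a set moved about as far as the genes of the array as a whole. Their median shunt effect was 0.03 in the right atrium and 0.02 in the left, against 0.02 and -0.01 over all genes, and the median size of the effect was 0.12 and 0.11, against 0.11 and 0.09. In the right atrium the 3 shunt values lay wholly outside the 3 sham values for 12 members (26.7%), against 32.1% of all genes. In the left atrium this held for 10 members (22.2%), against 19.1%. The effects in both atria had the same sign for 24 of the 45 members (53.3%), the share also found over all genes.

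Frzb, also called sFRP3, is a secreted antagonist that holds Wnt ligands through a domain shared with the frizzled receptors. In the right atrium the sham pools read 6.23, 6.39 and 5.85 and the shunt pools 7.64, 7.18 and 7.15, and in the left atrium the sham pools read 6.99, 6.36 and 6.33 and the shunt pools 8.55, 8.16 and 6.99. The right atrial groups did not overlap, and in the left atrium 2 shunt pools lay far above the sham pools while replicate 3 read the same to the second decimal as the highest of them. Averaged over both atria Frzb (probe set 1375961_at) rose 2.39-fold, by 1.26 ± 0.23 (SE), with an adjusted p of 0.00958 in limma. Within 1 atrium the differences were 1.17 ± 0.32 on the right (adjusted p = 0.0717) and 1.35 ± 0.32 on the left (adjusted p = 0.0845), neither of which passed. Its other probe set gave an average difference of 1.07 with an adjusted p of 0.0191. RNA was taken from whole tissue, so for Frzb, as for every gene here, a change in the number of cells of a type and a change in RNA per cell cannot be told apart.

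The left atrium shunt pool of replicate 3 stood apart over all genes. On the second principal component, which holds 9.76% of the variance, it lay at -26.7 where the other left shunt pools lay at 15.0 and 13.6, and its mean correlation with its own group was 0.9895, against 0.9923 and 0.9929. It carried the lowest Frzb, Tcf7 and Sfrp2 values of its group, and without it the fit over the remaining 11 arrays had less spread. In that fit Frzb rose by 1.17 ± 0.20 on the right (adjusted p = 0.00697) and by 1.80 ± 0.22 on the left (adjusted p = 0.0015). Without this pool the members that changed numbered 5 in the right atrium, 3 in the left and 7 on average, while the shares of all genes rose to 6.58%, 2.36% and 8.56%.

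**Figure D1:**
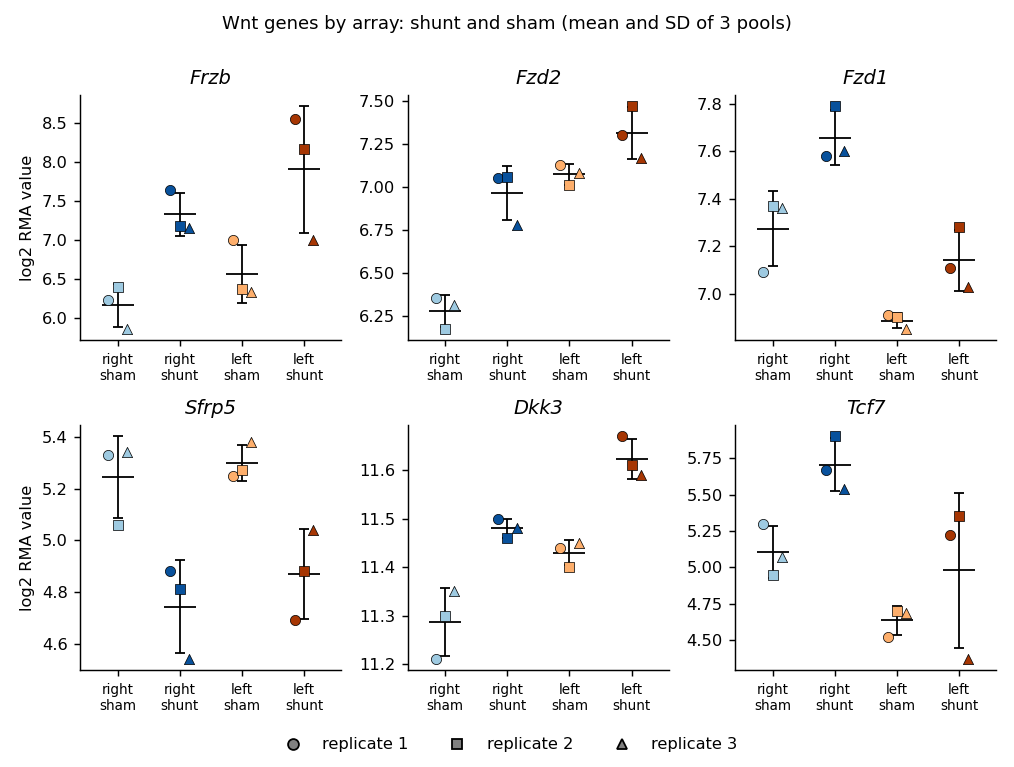
log2 RMA values of Frzb, Fzd2, Fzd1, Sfrp5, Dkk3 and Tcf7 on each of the 12 arrays, by atrium and operation; symbols give the replicate, and bars the mean and SD of 3 pools. Frzb of left shunt replicate 3 (6.99) lies at the level of the highest left sham pool, below 8.55 and 8.16 in the other shunt pools.

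Among the receptors, Fzd2 gave the smallest adjusted p. Frizzled proteins are the membrane receptors that bind Wnt ligands directly. Fzd2 (probe set 1398304_at) read 6.35, 6.17 and 6.31 in the right sham pools and 7.05, 7.06 and 6.78 in the right shunt pools. On the left it read 7.13, 7.01 and 7.08 in sham and 7.30, 7.47 and 7.17 in shunt. The groups did not overlap in either atrium, and the right shunt pools reached no higher than the range of the left sham pools. Fzd2 rose 1.61-fold in the right atrium (0.69 ± 0.10, adjusted p = 0.00514), and the left difference of 0.24 ± 0.10 did not pass (adjusted p = 0.296). The left effect minus the right effect was -0.44 ± 0.14 with an adjusted p of 0.211 in limma, so the atria were not shown to differ in their response.

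Fzd1 (probe set 1370256_at), a second receptor, read 7.09, 7.37 and 7.36 in right sham, 7.58, 7.79 and 7.60 in right shunt, 6.91, 6.90 and 6.85 in left sham and 7.11, 7.28 and 7.03 in left shunt. Shunt pools lay above sham pools in both atria without overlap. The right difference of 0.39 ± 0.10 had an adjusted p of 0.0499, just inside the threshold and and the average over both atria was 0.32 ± 0.07 (adjusted p = 0.021). The right call held in 8 of 22 alternative settings, with differences from 0.30 to 0.43, and was lost without any 1 of the right pools, the left sham pools or left shunt replicate 1. The average call held in 17 of 21 and was lost without right shunt replicate 2, left shunt replicate 2 or left sham replicate 3 (0.27 to 0.35 over all settings). In the right atrium all 7 frizzled genes had a positive difference, from 0.08 (Fzd3) to 0.69 (Fzd2) with a median of 0.22, and this count stayed at 7 after a second quantile normalization and after centring each array on its median. Of the 5 that did not pass, Fzd8 differed by 0.25 (adjusted p = 0.101), Fzd4 and Fzd6 by 0.22 each, and Fzd5 by 0.18. The count is of the brightest probe sets. Dim second probe sets of Fzd5 and Fzd4 differed by -0.1 and 0.05 on the right, and neither passed. In the left atrium 4 of the 7 differences were positive and they ranged from -0.21 (Fzd5) to 0.25 (Fzd1). Over all genes 54.7% of the right differences were positive.

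The co-receptors, which frizzled needs to signal to beta-catenin, did not pass the test. Lrp6 differed by -0.04 ± 0.19 on the right and -0.10 ± 0.19 on the left. Lrp5 read 6.14, 6.27 and 6.51 in right sham and 6.75, 6.49 and 6.63 in right shunt, ranges that overlapped, and differed by 0.32 ± 0.13 (adjusted p = 0.198).

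Sfrp5, like Frzb a secreted frizzled-related antagonist, went the other way. Its sham pools read 5.33, 5.06 and 5.34 on the right and 5.25, 5.27 and 5.38 on the left, and its shunt pools read 4.88, 4.81 and 4.54 on the right and 4.69, 4.88 and 5.04 on the left. All 6 shunt pools lay below all 6 sham pools. Sfrp5 (probe set 1393069_at) fell 1.42-fold in the right atrium (-0.50 ± 0.11, adjusted p = 0.0374), a call kept in 10 of 21 alternative settings with differences from -0.59 to -0.37. It was lost without any 1 of the right shunt or left sham pools, or right sham replicate 1 or 3. The left difference was -0.43 ± 0.11 (adjusted p = 0.116), and the average -0.46 ± 0.08 passed at an adjusted p of 0.00795. Its mean lay below 5.46, the median of all values, where an array compresses differences and background counts for more, and 20 of the 45 members lay below that line.

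Dkk3 is a divergent dickkopf protein that, unlike the typical ones, is not known mainly as a co-receptor blocker. It read 11.21, 11.30 and 11.35 in right sham, 11.50, 11.46 and 11.48 in right shunt, 11.44, 11.40 and 11.45 in left sham and 11.67, 11.61 and 11.59 in left shunt. The steps were small and without overlap in each atrium. The average difference of 0.20 ± 0.05 (probe set 1370328_at) passed at an adjusted p of 0.0326. The other bright probe sets of Dkk3 gave averages of 0.10 and -0.01, neither past the threshold, and the call held in 7 of 21 alternative settings with differences from 0.05 to 0.21. It was lost without any 1 of 10 pools, all but right sham replicate 3 and left shunt replicate 3.

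Sfrp2, another ligand-binding antagonist, read 7.65, 7.47 and 7.58 in right sham, 8.13, 7.98 and 7.73 in right shunt, 6.27, 6.66 and 6.54 in left sham and 7.42, 7.18 and 6.51 in left shunt. The right groups did not overlap, and the left groups did through shunt replicate 3. The differences of 0.38 ± 0.19 on the right and 0.55 ± 0.19 on the left did not pass (adjusted p = 0.288 and 0.221). Without left shunt replicate 3 the left difference was 0.81 ± 0.13 with an adjusted p of 0.00966. Of the remaining antagonists Sfrp1, Sfrp4, Wif1 and Dkk2 did not pass in either atrium, with differences from -0.12 to 0.12 on the right. On the left Sfrp4 differed by -0.41 ± 0.16 (adjusted p = 0.28) and Sfrp1 by -0.28 ± 0.10 (adjusted p = 0.25), and all 4 overlapped between sham and shunt in both atria.

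No ligand passed the test under the shunt. None of the 13 Wnt genes was called in either atrium or on average, and their differences ran from -0.23 (Wnt2b) to 0.08 (Wnt5a) on the right and from -0.26 (Wnt5a) to 0.15 (Wnt2b) on the left. Of the 13, 8 lay below the median of all values, so a change in them could go undetected at this signal. Wnt5a, a ligand best known for signalling without beta-catenin, read 4.13, 4.02 and 4.06 in left sham and 3.89, 3.76 and 3.78 in left shunt, without overlap. Its left difference of -0.26 ± 0.08 had an adjusted p of 0.151. Porcn, the acyltransferase that attaches the lipid to every Wnt ligand, differed by 0.17 on the right and 0.02 on the left, neither past the threshold.

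Below the receptors the relay and its feedback genes showed no call under the shunt. The 5 relay genes Dvl1, Dvl2, Dvl3, Axin1 and Ctnnb1, which encode the dishevelled adaptors, the scaffold of the destruction complex and beta-catenin, ranged from -0.20 to 0.04 on the right and from -0.22 to 0.04 on the left. Axin2, the feedback inhibitor commonly read as a marker of pathway activity, read 5.46, 4.87 and 5.09 in right sham, 4.98, 4.98 and 4.93 in right shunt, 4.76, 5.26 and 4.93 in left sham and 4.85, 4.67 and 4.90 in left shunt. The groups overlapped in both atria, and the differences were -0.18 ± 0.15 and -0.17 ± 0.15 (adjusted p = 0.545 and 0.652). Nkd1 and Nkd2, which bind dishevelled, lay within 0.05 of 0 in both atria. The R-spondins Rspo1 and Rspo3, which keep frizzled receptors at the cell surface, did not pass, and Rspo3 differed by -0.35 ± 0.14 on the right and -0.31 ± 0.14 on the left (adjusted p = 0.202 and 0.378). A second Rspo3 probe set, also dim and of the same mean level (4.278), differed by -0.11 on the right and 0 on the left.

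Of the nuclear factors Tcf7, which encodes TCF1, had the widest difference. It read 5.30, 4.95 and 5.07 in right sham and 5.67, 5.90 and 5.54 in right shunt, and 4.52, 4.70 and 4.69 in left sham and 5.22, 5.35 and 4.37 in left shunt. The right groups did not overlap, while on the left the shunt group held both the highest values and the lowest one, that of replicate 3. The differences of 0.60 ± 0.20 (adjusted p = 0.129) and 0.34 ± 0.20 (adjusted p = 0.491) did not pass. Without left shunt replicate 3 they were 0.60 ± 0.11 (adjusted p = 0.0105) and 0.65 ± 0.12 (adjusted p = 0.0201). Lef1, Tcf7l1 and Tcf7l2 did not pass in either atrium.

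**Figure D2:**
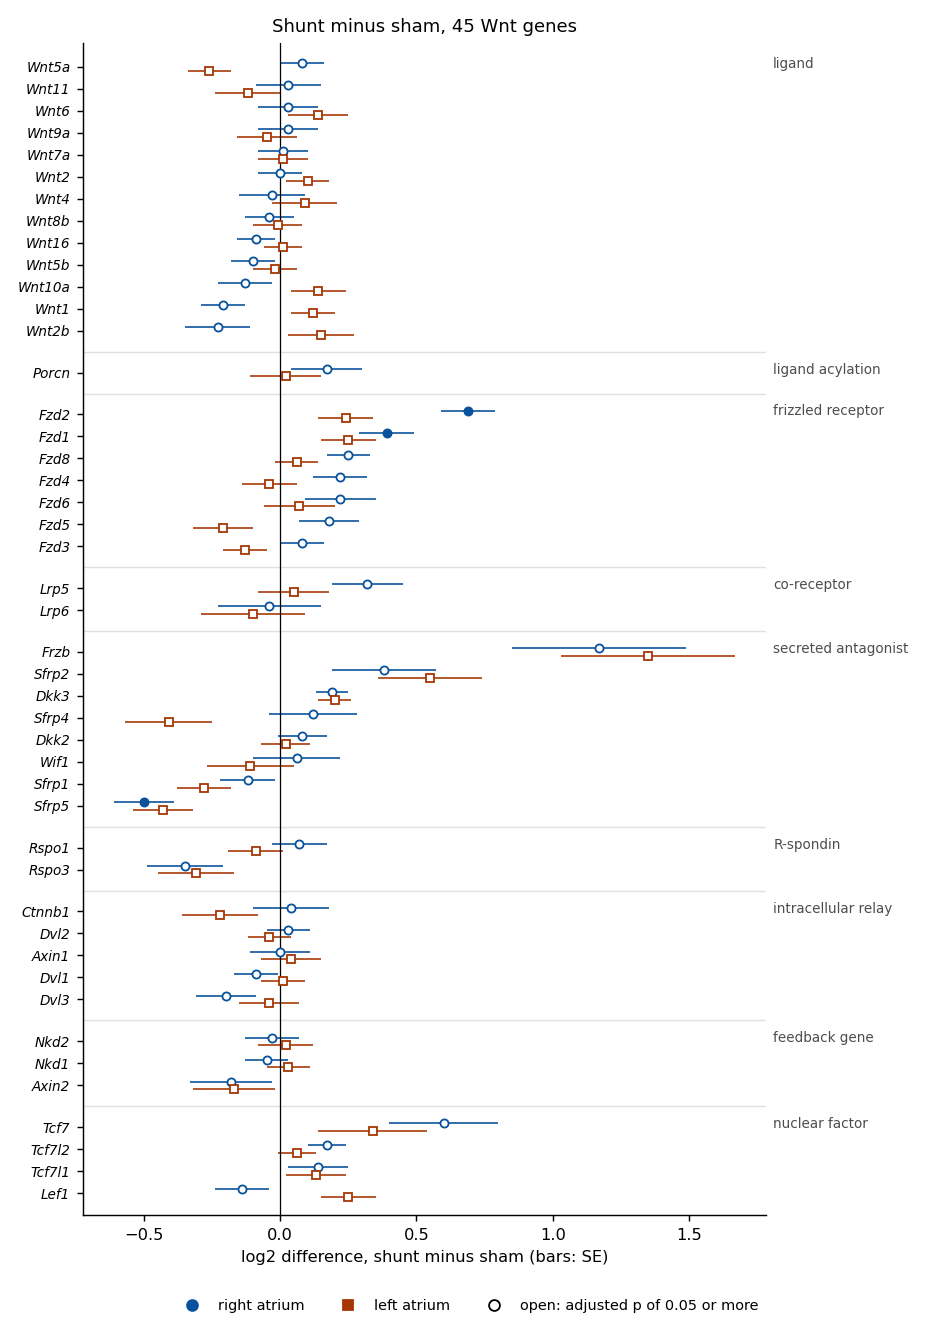
Shunt minus sham log2 difference of each of the 45 members in the right and the left atrium, grouped by role; bars are SE, and open symbols mark an adjusted p of 0.05 or more. The ligands stay between -0.26 and 0.15, while Frzb lies at 1.17 and 1.35 and all 7 frizzled receptors lie right of 0 in the right atrium.

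Genes that act beside the members were read from 4 lists. Of 21 measured secretion, release and membrane modulators, 1 rose and 1 fell in the right atrium and likewise in the left, and 3 rose and 2 fell on average. The shares of all genes that rose and fell were 2.83% and 1.14% on the right, 0.373% and 0.563% on the left, and 3.4% and 1.86% on average. Znrf3, a ubiquitin ligase that removes frizzled receptors from the cell surface, read 6.53, 6.57 and 6.70 in right sham and 5.86, 5.81 and 5.86 in right shunt, without overlap, and fell 1.69-fold (-0.76 ± 0.10, adjusted p = 0.00285). On the left it read 5.28, 5.51 and 5.60 in sham and 5.14, 5.16 and 5.40 in shunt, where the groups overlapped and the difference of -0.23 ± 0.10 did not pass (adjusted p = 0.317). Gpc4, a glypican that carries heparan sulphate at the cell surface, rose in both atria, by 0.42 ± 0.10 on the right and 0.49 ± 0.10 on the left (adjusted p = 0.0431 and 0.0451). Tnfrsf19, a membrane receptor of the TNF receptor family that was dim, fell by 0.56 on the log2 scale in the left atrium (adjusted p = 0.0381). Lgr6, an R-spondin receptor, and Cthrc1, a secreted collagen repeat protein, rose on average by 0.35 and 0.34.

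Of 30 further relay genes 1 fell and none rose in the right atrium (background 1.14% and 2.83%). This was Gsk3a, a kinase of the destruction complex (-0.33 ± 0.07, adjusted p = 0.0342), and its left difference was 0.26 ± 0.07 (adjusted p = 0.135). None of the 32 genes of the planar polarity and calcium branches changed in either atrium by the same test. Of 32 textbook targets of beta-catenin 4 rose and none fell in the right atrium (background 2.83% and 1.14%). In the left atrium 1 rose and none fell (background 0.373% and 0.563%). The 4 on the right were Ccn5, a matricellular protein (1.55 ± 0.12, adjusted p = 0.000193), Fgf9, a growth factor (0.90, adjusted p = 0.0107), Trib2, a pseudokinase (0.55, adjusted p = 0.00293), and Plaur, the urokinase receptor (0.43, adjusted p = 0.0248). Of these, Fgf9 and Plaur were dim. In the left atrium Ccn5 rose by 0.71 ± 0.12 (adjusted p = 0.024). The median difference over these targets was 0.02 on the right and 0.06 on the left, against 0.02 and -0.01 over all genes. These lists were drawn up with results of these arrays known, so their counts describe the arrays and are no independent evidence.

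Marker levels of several other cell types moved with the shunt. The summed level of 11 macrophage markers, of which only Fcgr3a was dim, was 11.22 to 11.25 in right sham and 11.71 to 11.84 in right shunt, and 11.18 to 11.28 in left sham and 11.78, 11.76 and 11.18 in left shunt. Like Frzb, Tcf7 and Sfrp2 it was low in left shunt replicate 3. Of the 11, 3 rose in the right atrium (Aif1, Lyz2 and Mrc1) and none in the left. Over all genes 2.83% rose on the right and 0.373% on the left. The 11 fibroblast markers, none of them dim, summed to 14.55 to 14.67 in right sham, 14.69 to 14.70 in right shunt, 14.76 to 14.78 in left sham and 14.88, 14.88 and 14.61 in left shunt. Of these, 2 rose in the right atrium (Pi16 and Thy1) and 1 in the left (Thy1). The 9 smooth muscle and pericyte markers summed to 11.05 to 11.24 in right sham and 11.44 to 11.53 in right shunt, and 2 of them rose in the right atrium (Pdgfrb and Kcnj8). Their left sums overlapped, at 11.69 to 11.83 in sham and 11.72 to 11.93 in shunt, and none of the 9 was called there. The part of these cells in the Frzb, Fzd and Sfrp differences was not tested.

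The 7 ventricular cardiomyocyte markers, of which Irx4 was dim, summed to 13.05 to 13.07 in right sham and to 13.37, 14.22 and 14.16 in right shunt. Of these, 4 rose on the right (Myh7, Myl3, Myl2 and Hey2), against 2.83% of all genes. Right shunt replicate 1 was the pool nearest to sham in these markers. With it as the right shunt group's sole array the right difference was 0.77 for Fzd2, 1.48 for Frzb, 0.31 for Fzd1 and -0.37 for Sfrp5. That fit assumes that a lone pool varies like the other groups, so only the differences are given. The same pool had the highest macrophage (11.84) and endothelial (12.31) sums of its group. The part of ventricular cells in these differences was not tested. Left sham pools summed to 12.59 to 12.72 and left shunt pools to 12.77 to 12.96 in the same markers.

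**Figure D3:**
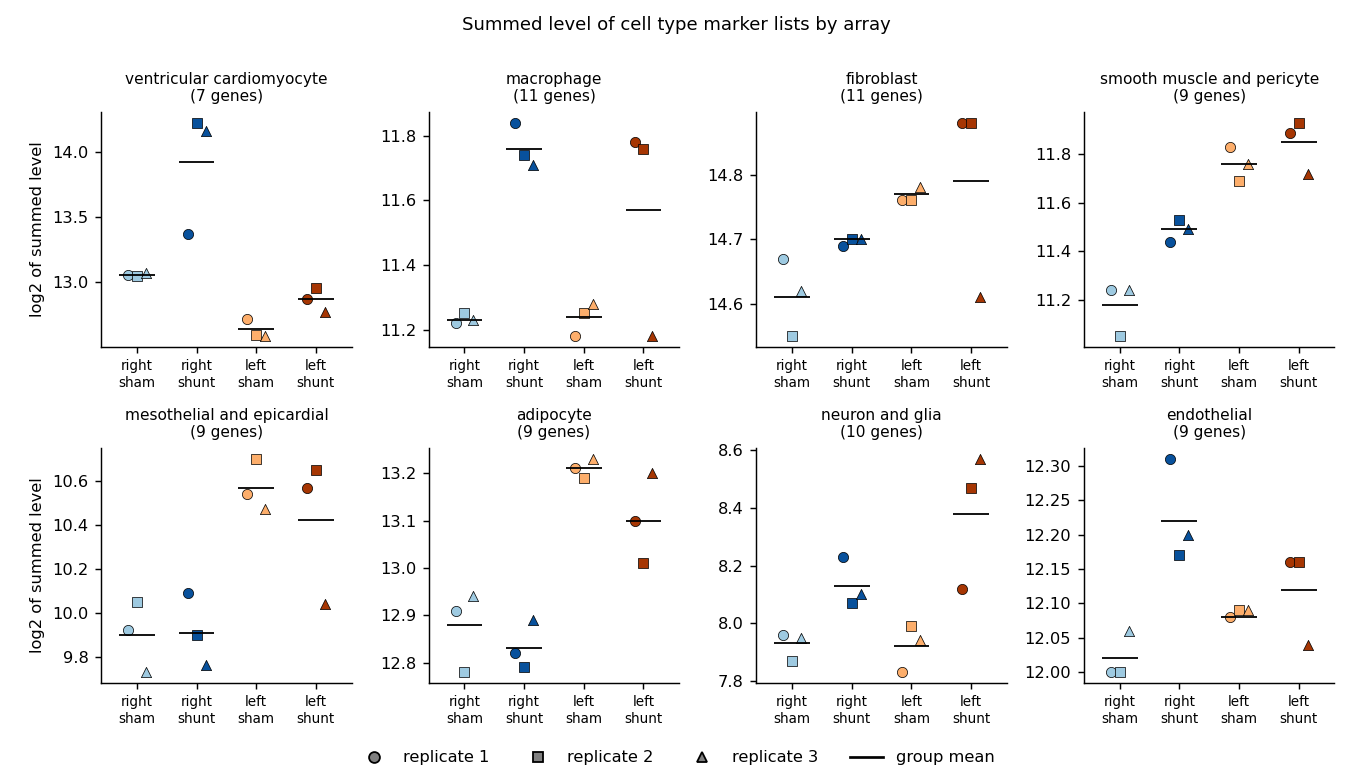
Summed log2 level of marker lists of other cell types on each array, by atrium and operation; symbols give the replicate, and lines the group mean. Macrophage markers of left shunt replicate 3 (11.18) lie within the left sham range, and ventricular markers of the right shunt pools lie at 13.37, 14.22 and 14.16, above right sham.

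The second comparison asks how the left atrium differs from the right, once in sham and once in shunt animals. Chamber accounted for most of the spread on the arrays, with 60.5% of the variance on the first component, so the background is large. In sham 18 of the 45 members differed (40%, against 37.6% of all genes), 13 higher on the left (background 22.2%) and 5 lower (background 15.4%). In shunt 18 differed (40%, against 40.5%), 10 higher (background 21%) and 8 lower (background 19.4%). The members were thus called about as often as any gene, and their median difference was 0.11 in sham and 0.12 in shunt, against 0.04 in each over all genes. There were 12 members called in both comparisons (26.7%, against 26% of all genes), all in the same direction in each, as were 99.5% of the genes called in both. No member passed the test that the chamber difference itself changed with the shunt. Were left and right pools from the same animals, which nothing states, the standard errors of this test and of left minus right could be too large.

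Sfrp1, a secreted antagonist of the same family as Frzb, showed the widest chamber difference of the 45 members. Its right pools read 7.38, 7.55 and 7.39 in sham and 7.40, 7.33 and 7.23 in shunt, and its left pools 9.08, 9.48 and 9.46 in sham and 9.01, 9.05 and 9.11 in shunt. Every left pool lay more than 1 unit above every right pool. Sfrp1 (probe set 1371861_at) was 3.73-fold higher on the left in sham (1.90 ± 0.10, adjusted p = 2.25e-07) and 3.33-fold higher in shunt (1.74 ± 0.10, adjusted p = 8.51e-07). Its other probe sets differed by 1.95 and 1.18 in sham and passed as well.

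Sfrp2 and Wif1 had the opposite chamber pattern. Sfrp2, whose pools are given above, was 2.11-fold lower on the left in sham (-1.08 ± 0.19, adjusted p = 0.000766) and 1.88-fold lower in shunt (-0.91 ± 0.19, adjusted p = 0.00256), and its other probe set differed by -0.77 and -0.82. Wif1, a secreted protein that binds Wnt ligands through a domain of its own, read 4.42, 4.41 and 5.02 in right sham, 4.71, 4.62 and 4.70 in right shunt, 3.48, 3.96 and 3.92 in left sham and 3.61, 3.67 and 3.77 in left shunt. No left pool reached a right pool. Its differences were -0.83 ± 0.16 (adjusted p = 0.00127) and -1.0 ± 0.16 (adjusted p = 0.000431), measured below the median of all values. Sfrp4, another antagonist of the Sfrp family and also dim, read 5.08, 4.89 and 5.05 in right sham, 5.31, 4.96 and 5.11 in right shunt, 5.62, 5.75 and 5.30 in left sham and 4.80, 5.15 and 5.49 in left shunt. The left pools lay above the right pools in sham, by 0.55 ± 0.16 (adjusted p = 0.0171), and spread around them in shunt, where the difference was 0.02 ± 0.16. Its second probe set differed by 0.20 in sham and did not pass. The sham call of Sfrp4 was lost without right sham replicate 2 or left sham replicate 1 or 2, with differences from 0.37 to 0.68 over all alternatives.

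Lrp6, the co-receptor that frizzled pairs with, was lower on the left. Its right pools read 8.09, 7.74 and 7.80 in sham and 7.86, 7.88 and 7.77 in shunt, and its left pools 6.31, 6.40 and 6.32 in sham and 6.75, 6.28 and 5.71 in shunt. The left pools lay wholly below the right pools, and left shunt replicate 3 was the lowest of the 12. Lrp6 (probe set 1376725_at, its only one) was 2.89-fold lower in sham (-1.53 ± 0.19, adjusted p = 6.4e-05) and 3.02-fold lower in shunt (-1.59 ± 0.19, adjusted p = 6.92e-05). Lrp5 differed by 0.12 in sham and -0.14 in shunt, neither past the threshold.

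Of the 7 frizzled receptors 4 were higher and 1 lower on the left in sham, and 2 were higher and 1 lower in shunt, beside 22.2% and 15.4% of all genes in sham and 21% and 19.4% in shunt. Fzd5 read 5.21, 5.22 and 5.51 in right sham, 5.49, 5.44 and 5.55 in right shunt, 6.33, 6.13 and 6.23 in left sham and 6.13, 5.78 and 6.15 in left shunt, with every left pool above every right pool. Its difference was 0.92 ± 0.11 in sham (adjusted p = 5.6e-05) and 0.53 ± 0.11 in shunt (adjusted p = 0.00304), while its dim second probe set differed by 0.14 and 0.22. Fzd2, whose pools are given above, was higher on the left by 0.79 ± 0.10 in sham (adjusted p = 6.03e-05) and by 0.35 ± 0.10 in shunt (adjusted p = 0.0141). The shunt call of Fzd2 held in 19 of 22 alternatives and was lost without right shunt replicate 3 or left shunt replicate 2 (0.26 to 0.42 over all settings). Fzd1 ran the other way, with -0.38 ± 0.10 in sham (adjusted p = 0.00723) and -0.52 ± 0.10 in shunt (adjusted p = 0.00125). Fzd4 read 7.60, 7.54 and 7.56 in right sham, 7.84, 7.73 and 7.79 in right shunt, 7.80, 8.14 and 8.08 in left sham and 8.10, 7.97 and 7.82 in left shunt. Fzd8 read 7.56, 7.58 and 7.56 in right sham, 7.93, 7.84 and 7.68 in right shunt, 7.82, 7.70 and 7.85 in left sham and 7.81, 7.89 and 7.84 in left shunt. In both genes the left sham pools lay above the right sham pools, while the shunt pools overlapped. Fzd4 and Fzd8 were higher on the left in sham by 0.44 ± 0.10 (adjusted p = 0.00349) and 0.22 ± 0.08 (adjusted p = 0.039), and differed by 0.18 and 0.03 in shunt, where neither passed. The dim second probe set of Fzd4 differed by 0.13 in sham and did not pass. The Fzd8 call held in 14 of 22 alternatives, with differences from 0.19 to 0.27. It was lost without right shunt replicate 2, any 1 right sham pool, or left sham replicate 1 or 3, and after a second quantile normalization, and its highest adjusted p was 0.118.

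**Figure D4:**
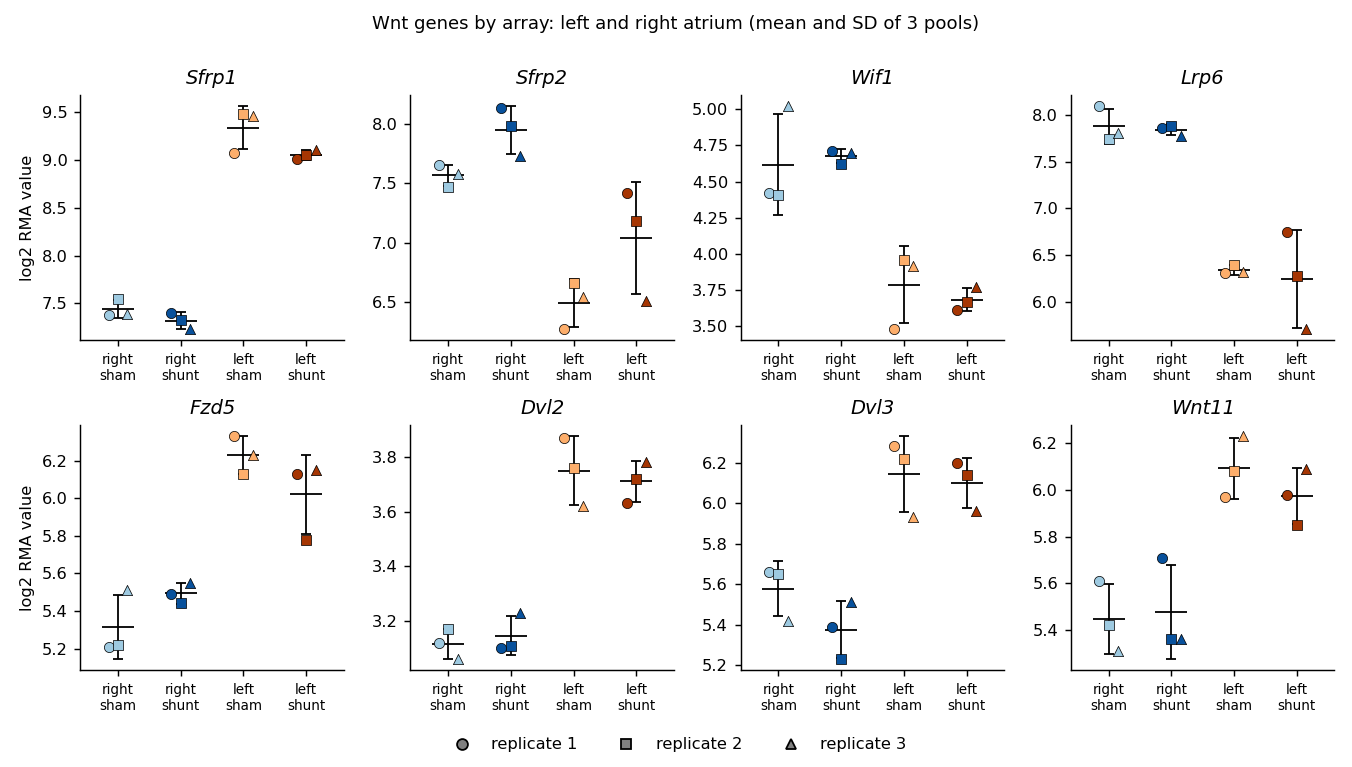
log2 RMA values of Sfrp1, Sfrp2, Wif1, Lrp6, Fzd5, Dvl2, Dvl3 and Wnt11 on each of the 12 arrays; symbols give the replicate, and bars the mean and SD of 3 pools. Left pools of Sfrp1 lie between 9.01 and 9.48 and right pools between 7.23 and 7.55, and Lrp6 shows the opposite order.

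The dishevelled genes, whose products pass the signal from frizzled to the destruction complex, were all higher on the left. Dvl3 read 5.66, 5.65 and 5.42 in right sham, 5.39, 5.23 and 5.51 in right shunt, 6.28, 6.22 and 5.93 in left sham and 6.20, 6.14 and 5.96 in left shunt. Every left pool of Dvl3 lay above every right pool, and the differences were 0.57 ± 0.11 (adjusted p = 0.00173) and 0.72 ± 0.11 (adjusted p = 0.000424). Dvl2, which was dim, read 3.12, 3.17 and 3.06 in right sham, 3.10, 3.11 and 3.23 in right shunt, 3.87, 3.76 and 3.62 in left sham and 3.63, 3.72 and 3.78 in left shunt. No left pool of Dvl2 reached down to a right pool, and the differences were 0.63 ± 0.08 and 0.56 ± 0.08 (adjusted p = 7.51e-05 and 0.000231). Dvl1 read 6.98, 7.07 and 7.2 in right sham, 7.04, 6.98 and 6.95 in right shunt, 7.30, 7.26 and 7.33 in left sham and 7.21, 7.41 and 7.28 in left shunt. Its left pools exceeded the right pools by less than those of the other dishevelled genes. Dvl1 differed by 0.21 ± 0.08, just inside the threshold in sham (adjusted p = 0.0493), and by 0.31 ± 0.08 in shunt (adjusted p = 0.0077). Another Dvl1 probe set (1397351_s_at) passed in sham (0.35, adjusted p = 0.0328) and not in shunt (0.14, adjusted p = 0.368). A dim one (1384698_at) passed in shunt (0.34, adjusted p = 0.00806) and not in sham (0.11, adjusted p = 0.334). The sham call of Dvl1 held in 9 of 22 alternative settings, with differences from 0.16 to 0.27, and was lost without any 1 of the right shunt or left sham pools, or right sham replicate 1 or 2. Axin1 did not pass in either comparison.

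Beta-catenin itself gave no single answer. The brightest probe set of Ctnnb1 (1373067_at) read 11.94, 11.82 and 11.84 in right sham, 11.87, 11.90 and 11.96 in right shunt, 11.59, 11.71 and 11.67 in left sham and 11.77, 11.53 and 11.02 in left shunt. The left pools lay below the right pools after both operations, with left shunt replicate 3 the lowest of all. The difference was -0.21 ± 0.14 in sham (adjusted p = 0.265) and -0.47 ± 0.14 in shunt (adjusted p = 0.0198). The shunt call was lost without right shunt replicate 2 (-0.47, adjusted p = 0.051) or replicate 3 (-0.45, adjusted p = 0.0591). A second probe set (1369733_at) was higher on the left by 1.19 in sham and 1.11 in shunt (adjusted p = 4.12e-06 and 1.2e-05), and another (1373470_at) differed by 0.13 and 0.20 without passing. The mean over the probe sets of Ctnnb1 was higher on the left in shunt, by 0.25, so the direction depends on the probe set read.

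Among the ligands Wnt11, which signals mostly without beta-catenin and is known for its part in heart development, was higher on the left. It read 5.61, 5.42 and 5.31 in right sham, 5.71, 5.36 and 5.36 in right shunt, 5.97, 6.08 and 6.23 in left sham and 5.98, 5.85 and 6.09 in left shunt. The left pools lay wholly above the right pools, by 0.65 ± 0.12 in sham (adjusted p = 0.000841) and 0.50 ± 0.12 in shunt (adjusted p = 0.00485). A dim second Wnt11 probe set differed by 0.44 in sham (adjusted p = 0.0267) and 0.36 in shunt (adjusted p = 0.0596).

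The ligands Wnt6, Wnt2b and Wnt5a passed in shunt. Wnt6 read 5.53, 5.91 and 5.60 in right sham, 5.87, 5.60 and 5.65 in right shunt, 5.97, 6.04 and 5.91 in left sham and 5.95, 6.12 and 6.25 in left shunt. Wnt2b read 5.23, 5.76 and 5.48 in right sham, 5.11, 5.27 and 5.41 in right shunt, 5.44, 5.49 and 5.46 in left sham and 5.62, 5.55 and 5.68 in left shunt. Both were higher in every left than in every right shunt pool, and overlapped between the chambers in sham. Wnt5a, which was dim, read 4.0, 3.94 and 3.91 in right sham, 4.15, 4.04 and 3.90 in right shunt, 4.13, 4.02 and 4.06 in left sham and 3.89, 3.76 and 3.78 in left shunt, and its left pools were the higher ones in sham and the lower ones in shunt. In shunt Wnt6 and Wnt2b were higher on the left by 0.40 and 0.35, and Wnt5a was lower by 0.22 on the log2 scale (adjusted p = 0.0144, 0.0308 and 0.0409). In sham these 3 differed by 0.29, -0.03 and 0.12 and did not pass.

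Each of these 3 ligand calls was lost when certain single pools were left out. The call of Wnt5a held in 11 of 21 alternatives, with differences from -0.34 to -0.16 and adjusted p up to 0.155. It was lost without right shunt replicate 1 or 2, right sham replicate 2 or 3, left shunt replicate 2 or 3, or left sham replicate 3. The call of Wnt2b held in 17 of 22 and was lost without right shunt replicate 1 (0.28) or 2 (0.36), or left shunt replicate 1 (0.35) or 3 (0.32). The call of Wnt6 held in 20 of 22 and was lost without right shunt replicate 2, with differences from 0.24 to 0.48 over all settings. A dim second Wnt6 probe set differed by 0.14 in shunt and did not pass (adjusted p = 0.283 in limma).

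Porcn, the acyltransferase, and Rspo1, an R-spondin, passed in sham. Porcn read 5.32, 5.51 and 5.66 in right sham, 5.91, 5.48 and 5.63 in right shunt, 5.79, 6.12 and 5.94 in left sham and 5.81, 6.13 and 5.98 in left shunt. Its left sham pools lay above its right sham pools (0.45 ± 0.13, adjusted p = 0.0161), and the shunt pools overlapped (0.30 ± 0.13, adjusted p = 0.086). Rspo1, which was dim, read 3.41, 3.45 and 3.30 in right sham, 3.52, 3.29 and 3.55 in right shunt, 3.6, 3.78 and 3.87 in left sham and 3.66, 3.80 and 3.53 in left shunt. It was higher on the left in sham without overlap (0.37 ± 0.10, adjusted p = 0.0126), and overlapped in shunt (0.21 ± 0.10, adjusted p = 0.115). The sham call of Porcn was lost without right sham replicate 1 or left sham replicate 2 (highest adjusted p 0.0717), and that of Rspo1 without right or left sham replicate 3 (highest adjusted p 0.0551).

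The nuclear factors were split. Tcf7, whose pools are given above, read lower in every left than in every right pool of the same operation. The difference passed in shunt (-0.72 ± 0.20, adjusted p = 0.0139) and not in sham (-0.47 ± 0.20, adjusted p = 0.0872). Without left shunt replicate 3 both passed, at -0.47 in sham (adjusted p = 0.00428) and -0.42 in shunt (adjusted p = 0.018), and without right shunt replicate 2 the shunt call was lost (-0.63, adjusted p = 0.0588). Lef1, which was dim, read 4.53, 4.53 and 4.76 in right sham, 4.57, 4.34 and 4.49 in right shunt, 4.13, 4.03 and 4.32 in left sham and 4.30, 4.42 and 4.51 in left shunt. Its left sham pools were below its right sham pools (-0.45 ± 0.10, adjusted p = 0.00396), and in shunt the groups overlapped with a difference of -0.06, while its dimmer second probe set differed by -0.07 in sham and did not pass. Tcf7l2 read 7.57, 7.61 and 7.61 in right sham, 7.73, 7.83 and 7.75 in right shunt, 7.52, 7.42 and 7.45 in left sham and 7.66, 7.48 and 7.44 in left shunt. It was lower on the left in shunt without overlap (-0.25 ± 0.07, adjusted p = 0.0179). That call held in 16 of 22 alternatives, with differences from -0.33 to -0.18, and was lost without right shunt replicate 2 or left shunt replicate 2 or 3, and after a second quantile normalization.

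Tcf7l1, a factor best known as a repressor, read 6.47, 6.73 and 6.97 in right sham, 6.85, 6.86 and 6.89 in right shunt, 7.27, 7.32 and 7.35 in left sham and 7.38, 7.58 and 7.37 in left shunt. Every left pool lay above every right pool. Tcf7l1 was higher on the left by 0.59 ± 0.11 in sham and 0.58 ± 0.11 in shunt (adjusted p = 0.00107 and 0.0013). A second Tcf7l1 probe set (1382558_at) was lower on the left, with differences of -0.60 and -0.57 (adjusted p = 0.00657 and 0.00883), so the direction for Tcf7l1 is not settled by these arrays.

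**Figure D5:**
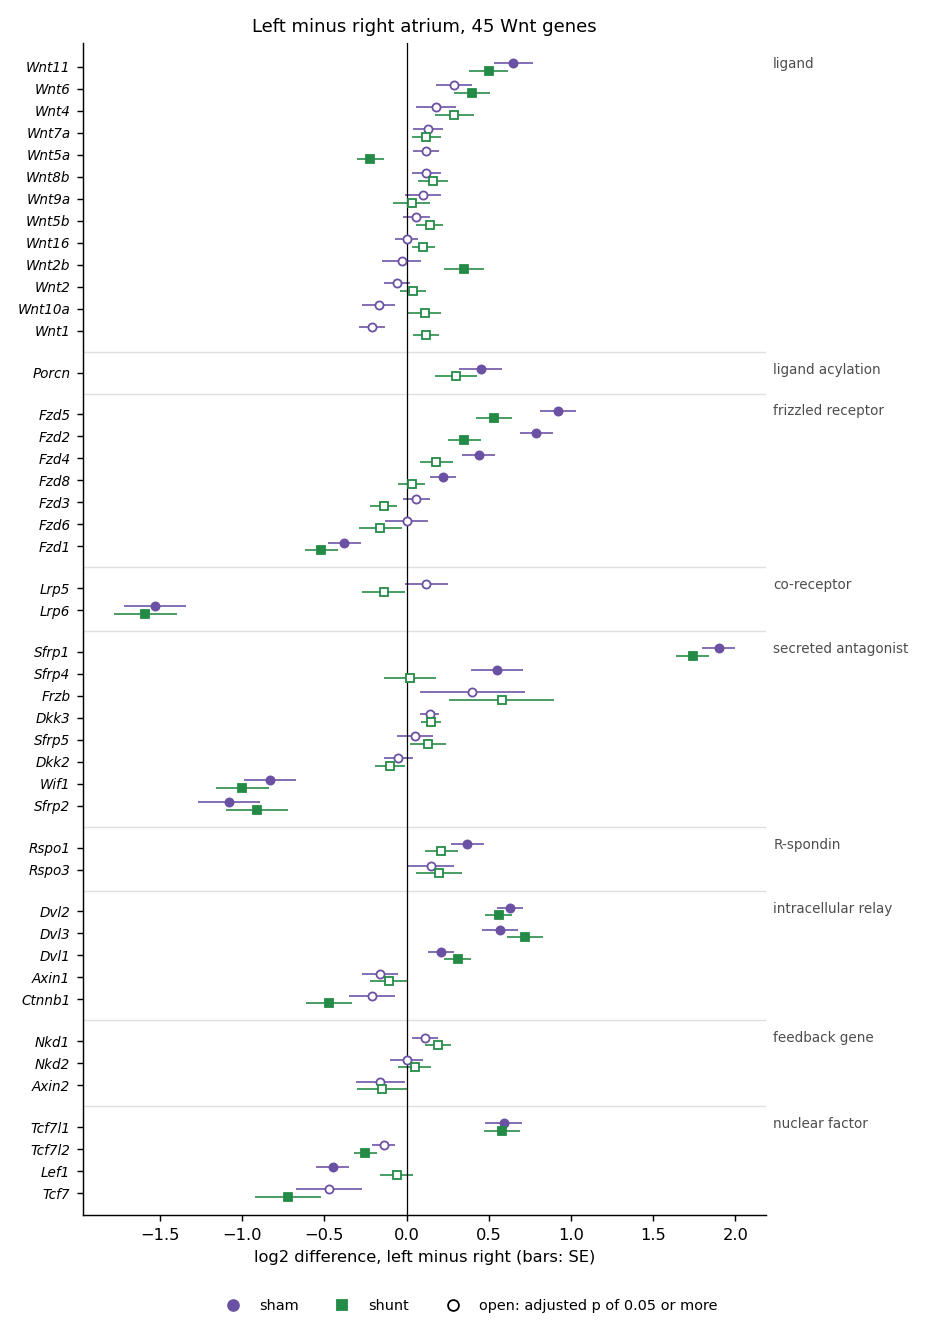
Left minus right log2 difference of each of the 45 members in sham and in shunt, grouped by role; bars are SE, and open symbols mark an adjusted p of 0.05 or more. Sfrp1 lies at 1.90 and 1.74, and Lrp6 at -1.53 and -1.59.

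Other Wnt genes from the 4 lists also differed between chambers. Of 21 modulators 4 were higher and 4 lower on the left in sham, and 3 higher and 4 lower in shunt. Over all genes 22.2% were higher and 15.4% lower in sham, and 21% and 19.4% in shunt. Among the modulators Sostdc1, a secreted antagonist of BMP and Wnt signalling that was dim, differed by -1.27 ± 0.17 in sham and -1.04 ± 0.17 in shunt (adjusted p = 9.85e-05 and 0.000511). Znrf3 differed by -1.14 and -0.61. Of 30 further relay genes 11 were higher and 6 lower in sham, and 12 higher and 9 lower in shunt, led by Tle5, a short co-repressor of the Groucho family (1.53 ± 0.09 in sham, adjusted p = 3.54e-07). Of 32 planar polarity and calcium genes 5 were higher and 8 lower in sham, and 6 higher and 8 lower in shunt. The widest called differences of this list in sham were those of Camk2a and Prkcb, both dim. Next came the GTPase Rhoa, which differed by 0.87, and the formin Daam1, by -0.86. Of 32 textbook targets 7 were higher and 7 lower in sham, and 4 higher and 9 lower in shunt. The widest called differences of the targets were those of Id2 and Jun in sham. In shunt they were those of the cyclins Ccnd1 (-1.38) and Ccnd2 (-1.18), both of which had their lowest value in left shunt replicate 3.

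Markers of other cell types differed between the chambers as well. The 9 mesothelial and epicardial markers, of which Krt8 and Krt18 were dim, summed to 9.73 to 10.05 in right sham and 10.47 to 10.70 in left sham, and to 9.76 to 10.09 in right shunt and 10.57, 10.65 and 10.04 in left shunt. Of these 9, 6 were higher on the left in sham, where 22.2% of all genes were higher and 15.4% lower. The 9 smooth muscle and pericyte markers summed to 11.69 to 11.83 in left sham against 11.05 to 11.24 in right sham, and 7 of them were higher on the left. The 7 ventricular markers were 12.59 to 12.72 in left sham against 13.05 to 13.07 in right sham, with 5 lower and 1 higher on the left. The part of these cells in the chamber differences of Sfrp1, Sfrp2, Wif1 and Lrp6 was not tested.

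A total of 18 members were called in none of the comparisons. They were the ligands Wnt1, Wnt2, Wnt4, Wnt5b, Wnt7a, Wnt8b, Wnt9a, Wnt10a and Wnt16, the receptors Fzd3 and Fzd6, the co-receptor Lrp5, the antagonist Dkk2, the R-spondin Rspo3, and Axin1, Axin2, Nkd1 and Nkd2. A p that misses the threshold does not show that these genes are alike between groups.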

How the data were processed

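RNA from 12 pools was hybridised to Affymetrix rat arrays. The deposited values, on a log2 scale, are the authors' RMA output, as the submitters' processing notes record. That method corrects background, brings the arrays to 1 distribution and shrinks differences of dim probe sets. Of 31099 probe sets 57 controls were left out. Probe sets were named through the platform annotation: 20826 had 1 gene, 436 several and 9780 none. limma 3.58.1 (R 4.3.3) fitted 4 group means to all 12 arrays, and p-values were adjusted by Benjamini-Hochberg over 31042 probe sets. Each gene was read through its brightest probe set. Values on all arrays are given for members past the threshold of 0.05 in any of 6 comparisons and for the 5 with the largest absolute difference in right shunt, left shunt and left minus right sham; the listed pathway genes named are at most 6 a list, those of the largest called difference. Lrp5 and Axin2 were added after their values were seen. Same-numbered pools of the right and left atrium within an operation had correlations of their deviations from 0.08 to 0.15. In all other pairs of groups the correlations ran from -0.10 to 0.07. No pools were treated as paired. The alternative fit with the replicate number as a block gives same-numbered pools 1 shared effect in all 4 groups. It therefore does not test a pairing within an operation. Nothing states whether pools shared animals across atria. The fit was tested on simulated data. Members and lists were chosen with earlier results of these data known.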

Additional observations from a re-analysis of the deposited data

How the results depend on the processing

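Of 44 called member values 18 passed the threshold in every alternative that tested them, and 26 lost the call in at least 1 of up to 22 alternatives. These alternatives include a fit with right shunt replicate 1 as the only array of its group. A lone pool has no spread of its own, so counts from that fit are not given. In the right atrium the count of members changed by the shunt (3) became 1 after a second quantile normalization and 5 with array weights, and it ran from 1 to 5 when single pools were left out. The highest count came without left shunt replicate 3, and 1 came without each of 8 other pools, none of them left shunt. In the left atrium (0) it became 1 with limma's trend and robust options, 1 with array weights and 1 with the replicate number as a block, and ran from 0 to 3 over the exclusions, with 3 without left shunt replicate 3. The average count (5) ran from 3 to 7 over the exclusions. The count of left against right differences in shunt (18) ran from 12 to 18, and that in sham ran from 15 to 22. Leaving out single pools gave 0 members for the difference between the atria's responses each time. The right Fzd1 call held in 8 of 22 alternatives, the right Sfrp5 call in 10 of 21, the average Dkk3 call in 7 of 21 and the right Fzd2 call in 21 of 22. With the mean of a gene's probe sets Tcf7l1 left minus right in sham was -0.01 and Ctnnb1 left minus right in shunt was 0.25, both reversed. The replicate block gave 3, 1, 4, 0, 16 and 18 called members in the 6 comparisons, with Frzb (adjusted p = 0.0254) in place of Sfrp5 (0.0603) among the 3 on the right, Frzb (0.023) as the 1 on the left Dkk3 (0.0566) absent from the average, and Dvl1 (0.0668) and Fzd8 (0.0567) absent from left minus right in sham; all 12 pools were nearest to their own number in the other atrium of the same operation and none was in every other group, a hint from the data only. Dim signal limits 20 members, of which 7 lay below the lower quartile.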

Other observations

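Second probe sets of 4 members are given here, from a larger number whose values differed from those of the brightest one. A second Wnt2 probe set was lower on the left in shunt, with a difference of -0.41 and an adjusted p of 0.0266 in limma, while the brightest differed by 0.04. A second Fzd5 probe set, which was dim, differed by 0.22 in shunt (adjusted p = 0.0418), below the 0.53 of the brightest, which passed as well. Of the 4 other Tcf7l2 probe sets 2 were lower on the left in sham, by -0.41 and -0.75, where the brightest differed by -0.14. The second Porcn probe set was higher on the left in both sham and shunt, by 0.52 and 0.47 (adjusted p = 0.000952 and 0.002 in limma), where the brightest passed in sham alone. These probe sets were picked after their values were seen.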
